A study of Mus musculus with 12 samples.

Results

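The genes described here are 47 genes of mouse embryonic stem (mES) cells. Their RNA was at most 15% above the control at 1 and 3 nM of the degrader dTAG13 and higher at 100 nM. They were chosen from the counts by a rule. A gene entered with a mean of at least 5 CPM (the count of a gene divided by the library total and multiplied by 1e6) over the 12 libraries. Its mean CPM at 1 nM and at 3 nM was at most 15% above the control mean, and its mean at 100 nM was at least 1.5 times the control mean. The rule set no lower limit at 1 and 3 nM, so a gene that fell there could enter. The lowest member was at 0.714 times the control at 1 nM and at 0.691 at 3 nM. Of 24421 genes in the table, 9815 had a mean of at least 5 CPM, and 598 of these (6.09%) reached 1.5 times the control at 100 nM. The 47 members are those of the 598 that met both ceilings, and the 551 others are called the other risers. Of the other risers, 343 were over the ceiling at both 1 and 3 nM, 195 at 3 nM alone and 13 at 1 nM alone.

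All libraries came from mES cells of the B6 strain with the genotype Brg1 dTag knock in, kept in 2i and LIF. An FKBP12-F36V degron was fused to BRG1 at the endogenous locus, and the line was grown from a colony of a single cell. dTAG13 binds the degron and brings it to an E3 ubiquitin ligase, so the tagged protein is degraded. The control libraries carry the tag. Their labels list no treatment, and the study gives the control of its expression data as DMSO. The other cells were given fresh medium with 0.3, 1, 3, 10 or 100 nM dTAG13 for 24 h. Each condition, the control included, has 2 libraries. Cells without the tag that were given dTAG13 are not analysed here, so loss of BRG1 and any other action of dTAG13 cannot be told apart. The labels do not say whether the 2 libraries of a condition came from separate cultures. The study describes its expression data as coming from 2 independent experiments.

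BRG1, encoded by Smarca4, is the main ATPase of the mammalian SWI/SNF complexes in mES cells. These complexes move and evict nucleosomes and keep enhancers and many promoters open for transcription factors. In mES cells they are known both for holding the pluripotency program active and for keeping developmental genes low. The series was made to ask how gene expression follows the level of BRG1, and genes that are higher only at a high degrader dose are one form that such a response can take.

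The libraries held 4663484 to 6375582 counts. Smarca4 RNA lay between 391 and 459.9 CPM in all 12 libraries, and since the degron acts on the protein this does not check the labels. The ribosomal transcript Rn45s took 10.5% to 19.4% of the counts of a library. The 10 mES cell markers summed to 3873 to 4111 CPM in the control libraries and 3933 to 4031 CPM at 100 nM. The 6 neural markers summed to 77.3 to 91.0 CPM in the control, 80.9 to 88.5 CPM at 0.3 nM and 95.2 to 98.7 CPM at 1 nM. Their sum was 117 to 130 CPM at 3 nM, 140.3 to 156 CPM at 10 nM and 158 to 163 CPM at 100 nM. It was thus above the control at 1 and 3 nM already, unlike the members, and its part in the results below was not tested. Markers of primitive endoderm (6.95 to 7.91 CPM in the control and 10.8 to 12.1 CPM at 100 nM), of mesoderm (11.3 to 15.3 and 20.8 to 24.2 CPM) and of fibroblasts (3.56 to 3.79 and 6.86 to 8.87 CPM) were low throughout. The 8 trophectoderm markers summed to 70.7 to 74.5 CPM in the control and 81.2 to 84.6 CPM at 100 nM, and no marker of any list was at 0 in every library. In bulk RNA, a change in the share of cells that express a gene and a change in RNA per cell cannot be told apart.

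By known role, the members fall into 7 groups that were set after the members were known. The 9 transcription factors and other DNA-binding regulators are Sp5, En2, Sall3, Zic2, Nfix, Foxj2, Bbx, Zfp438 and Zfp653. The 9 signaling genes, small GTPases and adaptors are Shf, Rassf2, Arl4a, Socs2, Camkv, Srcin1, Gucy1a2, Rab3d and Hecw2. Ltbp1, Sspo, Nrcam, Cd55, Has3 and Evpl encode proteins of the cell surface, cell adhesion and the matrix, and Fhod3, Efhd2, Dnah10 and Clip4 proteins of the cytoskeleton and cilia. Sat1, Slc27a2, Elovl2, Mgea5 and Slc35a5 act in metabolism and transport, and Igf2bp2, Dhx32, Tcea2, Dtwd1, Faap24 and Mb21d1 on RNA or DNA. No role was assigned to the 8 others, which are Efcab2, Pqlc3, Rcbtb2, Armcx4, Tmem57, Urgcp, Gm3414 and Ccdc171. In current nomenclature Mgea5 is Oga, Mb21d1 is Cgas and Tmem57 is Maco1.

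The members lie on 18 chromosomes, with at most 6 on chromosome 2, so they are not a single gene cluster. There were 2 pairs of members within 1 Mb of each other, Slc27a2 with Dtwd1 at 400883 bp and Rab3d with Zfp653 at 153224 bp. The nearest other gene of at least 5 CPM was at least 1.5 times the control at 100 nM for 7 of the 47 members, and the median ratio of the 47 neighbors was 1.09. Over all 9815 genes, 6.09% reached that ratio and the median was 1.03. Of the 47 members, 44 are annotated as protein coding in GENCODE M21, and 3 symbols had no match there.

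Of the 7 members that were called higher at 10 nM than at 0.3 nM in the test below, 4 are shown by the 250 bases before their start site, picked after their values were seen to run from a GC-rich window to one with TATA boxes. The sequences are RefSeq's, on GRCm38.p6, and capitals mark each match on either strand to the GC box (GGGCGG, the core of sites of SP and KLF factors), the CCAAT box (CCAAT) or the TATA box (TATAAA). The windows are chr2:122368919-122369168 on the minus strand for Shf, chr1:54195035-54195284 on the minus strand for Hecw2, chr6:48447924-48448173 on the plus strand for Sspo and chr4:134853346-134853595 on the minus strand for Tmem57.
Shf: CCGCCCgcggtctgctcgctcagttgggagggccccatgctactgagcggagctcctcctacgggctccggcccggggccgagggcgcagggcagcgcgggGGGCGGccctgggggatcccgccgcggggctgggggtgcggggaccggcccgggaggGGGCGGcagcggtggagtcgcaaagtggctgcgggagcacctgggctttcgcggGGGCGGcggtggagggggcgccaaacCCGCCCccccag
Hecw2: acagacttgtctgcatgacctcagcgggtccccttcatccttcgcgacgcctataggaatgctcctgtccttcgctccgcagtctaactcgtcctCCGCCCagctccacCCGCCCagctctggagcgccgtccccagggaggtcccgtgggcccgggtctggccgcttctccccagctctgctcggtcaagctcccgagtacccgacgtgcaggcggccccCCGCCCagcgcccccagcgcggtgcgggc
Sspo: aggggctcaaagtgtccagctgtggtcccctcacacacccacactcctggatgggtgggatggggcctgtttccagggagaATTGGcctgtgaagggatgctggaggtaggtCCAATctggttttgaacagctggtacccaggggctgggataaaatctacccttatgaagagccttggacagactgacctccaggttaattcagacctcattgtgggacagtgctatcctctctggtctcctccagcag
Tmem57: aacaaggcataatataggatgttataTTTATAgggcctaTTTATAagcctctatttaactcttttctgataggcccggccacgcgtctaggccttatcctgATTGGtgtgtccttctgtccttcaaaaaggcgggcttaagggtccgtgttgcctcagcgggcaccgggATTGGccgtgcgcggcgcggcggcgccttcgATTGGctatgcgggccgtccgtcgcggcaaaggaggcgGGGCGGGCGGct
Shf has 5 GC boxes in a window of 79.6% G and C, and Hecw2 has 3 in a window of 70.0%. Sspo has no GC box but 2 CCAAT boxes, with 54.8% G and C and 0 CpG. Tmem57 has 3 CCAAT boxes, 2 TATA boxes and 2 overlapping GC boxes. Of the 7 called members, 6 have a GC box, which 33.0% of 32536 promoters of the same length hold, 2 have a CCAAT box (33.8% of promoters) and 1 has a TATA box (12.3%). The 32536 promoters were not limited to expressed genes, as the 7 are, so nothing is read from these differences. None of the 7 held an E-box (CACGTG, 6.04% of promoters), a CRE (TGACGTCA, 1.56%) or an AP-1 motif (TGANTCA, 6.73%). These are matches of letters and not measured sites. A promoter was found for 35 of the 47 members (74.5%), so a comparison of base composition over all members would be void and was not made.

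The median member was at 0.974 times the control at 0.3 nM, 0.976 times at 1 nM, 1.02 times at 3 nM, 1.34 times at 10 nM and 1.69 times at 100 nM. The 1, 3 and 100 nM values were fixed by the rule, so they are given without a test, and the 0.3 and 10 nM ratios share the control mean with it. The other risers had medians of 1.12, 1.21, 1.43, 1.58 and 1.73 times the control at the same doses, and all 9815 genes of 1.01, 0.997, 1.03, 1.04 and 1.03. The rule itself sets the difference between members and other risers at 1 and 3 nM, and its floor at 100 nM holds for both. From 10 to 100 nM the median ratio was 1.31 for members and 1.12 for the other risers.

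**Figure D1:**
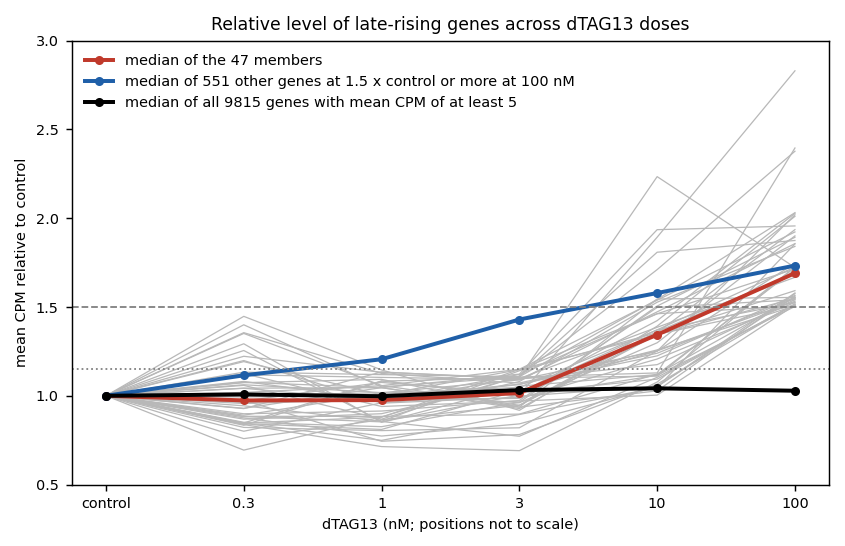
The mean CPM of each member relative to the control mean (gray lines) is plotted against the dTAG13 dose, with medians over the 47 members (red), the 551 other risers (blue) and all 9815 genes (black); dotted and dashed lines mark the ceiling of 15% above the control and the floor of 1.5 times the control. The red median is at 1.02 at 3 nM and the blue one at 1.43, a gap that the ceiling of the rule sets, and at 10 nM they are at 1.34 and 1.58.

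At 10 nM the members were spread from 1.00 to 2.23 times the control, and the mean of each of the 47 was above its control mean, with 59.8% of the 9815 genes as the background. The rule divides by the same control mean, so nothing is read from this count. The 10 nM mean was at least 15% above the control in 33 members and at least 1.5 times it in 10. The share of the control to 100 nM difference that was present at 10 nM had a median of 43.6%, with 25th and 75th percentiles of 21.2% and 58.3%. It was under 25% in 15 members, among them Foxj2 (0.753%), Nrcam (5.30%), Rassf2 (9.23%), Zic2 (10.7%) and Sp5 (24.7%). It was at least 90% in 6 members, which are Faap24, Gm3414, Sspo, Pqlc3, Nfix and Hecw2. Hecw2 was the only member with a lower mean at 100 nM than at 10 nM. Both 100 nM libraries were above both 10 nM libraries in 36 members, with 16.7% of the 9815 genes as the background. The control and 100 nM levels behind these shares and counts were used by the rule, which favors low values of the first and high values of the second, so they are a description of each member's curve only.

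Both 100 nM libraries were above both control libraries in all 47 members, against 35.6% of the 9815 genes, which the rule favors by its construction. They were above all 8 libraries of the control, 0.3, 1 and 3 nM in 42 members, the exceptions being Zfp438, Evpl, Zfp653, Urgcp and Slc35a5. At 0.3 nM, a dose with no ceiling, 9 members were over 15% above the control, with En2 the highest at 1.45 and Rassf2 next at 1.40. With a ceiling at 0.3 nM as well, which was added after the data were seen, 38 members were left. The 100 nM ratio was at least 2 in 7 members, and under 1.6 in 22.

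The levels behind these ratios were low. The mean CPM of the members ran from 5.09 to 209 with a median of 8.66, against 14.2 for the other risers and 33.9 for the 9815 genes, and 26 members were under 10 CPM. A member had 15 to 1719 counts in a library, with a median of 52. In 10 members the mean of the control, 0.3, 1 and 3 nM libraries was under 5 CPM, so these met the floor only through the higher doses. They are Nfix, Zfp438, Shf, Rassf2, Rab3d, Ltbp1, Sspo, Elovl2, Tcea2 and Efcab2. At these counts the 95% counting interval of the ratio, which covers counting error only, lay wholly below 1.5 at both 1 and 3 nM for 32 of the 47 members, and wholly above the ceiling of 15% at 100 nM for 37. For the other members the counts did not separate the low-dose ratio from 1.5, or the 100 nM ratio from the ceiling.

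Membership depended on single libraries. Under all 3 of the other scalings tried, 33 of the 47 members still met the rule. With each of the 8 control, 1, 3 and 100 nM libraries left out in turn, 26 to 44 did, and 6 members met it in every case. These were Zic2, Shf, Dnah10, Dhx32, Nfix and Sat1. All of them but Dhx32 also met it under the 3 scalings.

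**Figure D2:**
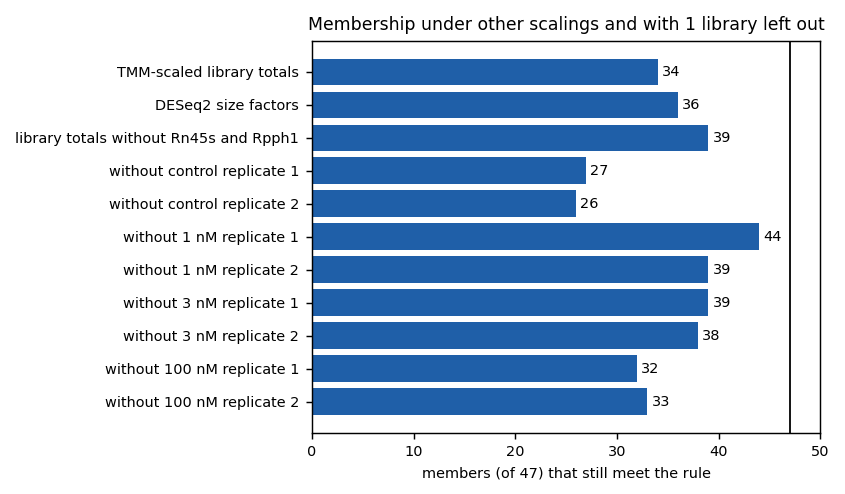
Bars give how many of the 47 members (vertical line) still met the rule under each of 3 other scalings of the libraries and with 1 of the 8 libraries of the rule's ratios left out, on a linear axis from 0. The bars run from 26, without control replicate 2, to 44, without 1 nM replicate 1.

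Values near the limits were close to those of genes left out. At 1 nM, En2 (1.145) and Urgcp (1.134) were just inside, and Sgsm2 and Bbc3 (both 1.162) just outside. At 3 nM, Tmem57 and Igf2bp2 (both 1.149) were inside and Tuba1a (1.153) and Mrs2 (1.1545) outside. At 100 nM, Mb21d1 (1.503) and Faap24 (1.51) were inside and Hist1h1t (1.496) and Zfp661 (1.498) outside. For mean CPM, Efcab2 (5.09) and Tcea2 (5.14) were inside and Hexdc (4.89) and Dnah2 (4.92) outside.

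The comparison that the rule left free is 10 nM against 0.3 nM, which asks whether the members were already higher at 10 nM in libraries that did not choose them, other than through the floor on mean CPM. Of the 47 members, 7 were called higher at 10 nM (14.9%), where a call needs more than a 1.5-fold change and an adjusted p under 0.05 (edgeR, quasi-likelihood test, Benjamini-Hochberg over the 11468 genes in the fit). The background was 2.32% of all genes tested, and 2.3% of those with at least 5 CPM. Of the 10 members under 5 CPM over the libraries up to 3 nM, Shf and Sspo were called, and these entered only through the higher doses, 10 nM among them. Without these 10 members, 5 of 37 were called (13.5%), against 2.17% of 9764 genes that met the floor in the same way, a check that was added after the data were seen. Of the 551 other risers, 151 were called (27.4%). Without the fold minimum, 13 members passed (27.7%), against 5.8% of all genes. None was lower by the same test, also at an unadjusted p under 0.05 and by DESeq2. The log2 fold change was positive in 37 members and negative in 10, with a median of 0.30 over members, 0.46 over the other risers and -0.0043 over all genes. Both 10 nM libraries lay above both 0.3 nM libraries in 32 members (68.1%), against a background of 30.5%.

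In the sample labels the control, 1, 10 and 100 nM libraries carry 1 run of index numbers and the 0.3 and 3 nM libraries another, so for this comparison the run of numbers and the dose cannot be told apart. The same holds for the 0.3 and 3 nM ratios to the control, and the rule uses the 3 nM ratio. Between doses of 1 run, the median member ratio was 1.38 for 10 nM over 1 nM and 1.04 for 3 nM over 0.3 nM, values that share libraries with the rule. Fits that left out 1 of the 4 libraries called 3 to 6 members, and most of the 7 calls were lost in some of them. Without 0.3 nM replicate 1, 3 members were called, and Hecw2 was the only 1 of the 7 among them. The 7 held 4 of the 4 calls without 0.3 nM replicate 2, 4 of the 6 without 10 nM replicate 1 and 3 of the 4 without 10 nM replicate 2.

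**Figure D3:**
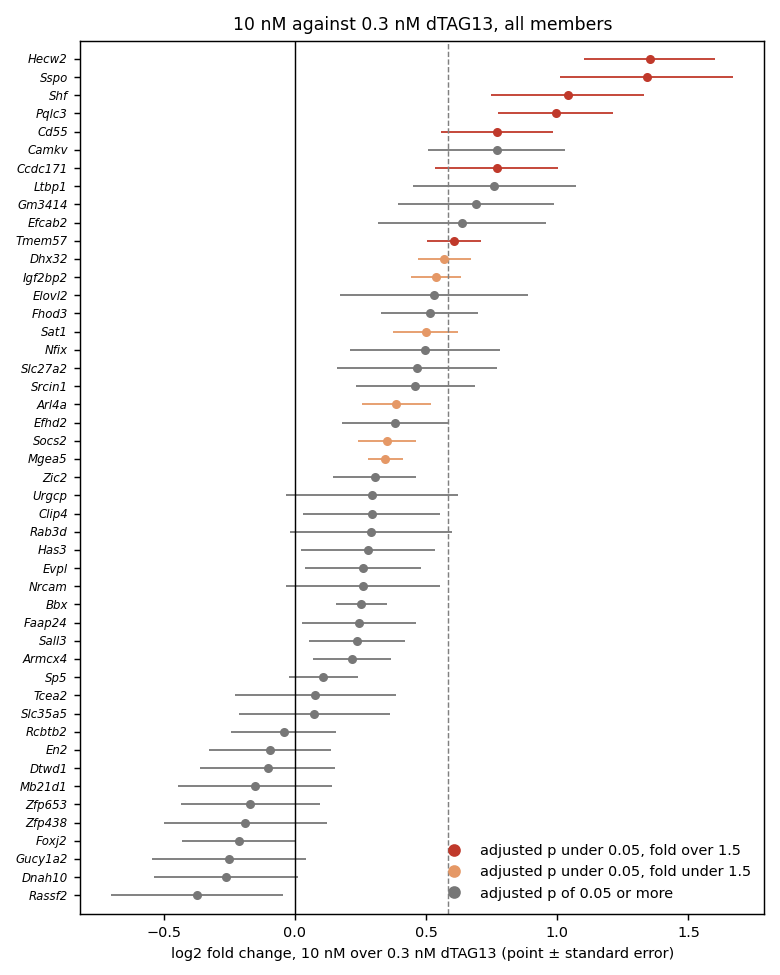
The log2 fold change of 10 nM over 0.3 nM with its standard error is plotted for each of the 47 members, in order of size; red marks an adjusted p under 0.05 with a fold over 1.5 (dashed line), orange the same p with a smaller fold, and gray the rest. Points run from -0.37 (Rassf2) to 1.35 (Hecw2), with 37 to the right of 0.

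Among signaling genes, small GTPases and adaptors, 4 of 9 had an adjusted p under 0.05, and 2 of these, Hecw2 and Shf, were called. Over all genes tested, 5.8% were higher at an adjusted p under 0.05 and 2.32% were called. Over all 47 members these shares were 27.7% and 14.9%. Shf, an adaptor with an SH2 domain that binds phosphorylated tyrosines (chr2:122348892-122368918 on mm10), had 4.94 and 3.88 CPM in the control libraries, 3.13 and 4.66 at 0.3 nM, 4.55 and 2.98 at 1 nM, 4.07 and 4.79 at 3 nM, 7.59 and 9.12 at 10 nM, then 12.7 and 12.3 at 100 nM. It was flat through 3 nM and had the highest 100 nM ratio of all members, 2.83 times the control, with both 10 nM libraries between the low doses and 100 nM. For 10 nM over 0.3 nM, the log2 fold change of Shf with its standard error (SE) was 1.04 (SE 0.29, adjusted p = 0.0173). At 100 nM its 95% counting interval ran from 2.06 to 3.94 times the control. The call on Shf was lost without 0.3 nM replicate 1 (adjusted p = 0.199), without 10 nM replicate 2 (adjusted p = 0.0955) and by DESeq2 (adjusted p = 0.069). It is the only called member among the 6 that met the rule with any library left out.

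Hecw2, a HECT-type E3 ubiquitin ligase (chr1:53806874-54195034), had 5.27 and 6.14 CPM in the control libraries, 4.35 and 5.17 at 0.3 nM, 6.398 and 5.96 at 1 nM, 6.43 and 6.15 at 3 nM, 10.0 and 15.5 at 10 nM, then 9.37 and 10.3 at 100 nM. Its 10 nM libraries differed from each other by more than those of any other dose, yet both lay above all libraries up to 3 nM. The log2 fold change was 1.35 (SE 0.25, adjusted p = 0.000436), the largest of the members, and all of the 12 alternative fits that included it called it. The alternative with a filter on mean RPKM (CPM per kilobase of exon) alone left Hecw2 out, since its mean RPKM was 0.669. Its promoter, printed above, was GC-rich with 3 GC boxes.

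Arl4a, a small GTPase of the ARF-like family, had 28.5 and 26.5 CPM in the control libraries, 31.8 and 30.5 at 0.3 nM, 35.7 and 25.9 at 1 nM, 28.9 and 32.0 at 3 nM, 37.4 and 47.4 at 10 nM, then 55.4 and 56.4 at 100 nM. Its log2 fold change was 0.39 (SE 0.13, adjusted p = 0.0499), at the edge of the threshold, and its adjusted p ran from 0.0324 to 0.307 over 13 alternatives. Socs2, a feedback inhibitor of cytokine and growth hormone receptors, had 37.9 and 42.2 CPM in the control libraries, 42.1 and 41.4 at 0.3 nM, 40.9 and 37.0 at 1 nM, 48.9 and 39.0 at 3 nM, 48.3 and 62.7 at 10 nM, then 64.1 and 69.4 at 100 nM. The change of Socs2 was 0.35 (SE 0.11, adjusted p = 0.0327), with adjusted p from 0.0102 to 0.312 over the alternatives. Both Arl4a and Socs2 kept an adjusted p under 0.05 without 10 nM replicate 1, and lost it with any of the other 3 libraries left out. Rassf2, a Ras association domain protein, had another shape, with 3.79 and 3.88 CPM in the control libraries, 5.39 and 5.35 at 0.3 nM, 5.39 and 2.67 at 1 nM, 3.86 and 4.62 at 3 nM, 3.55 and 5.11 at 10 nM, then 10.0 and 8.33 at 100 nM. Rassf2 was highest at 100 nM, at 2.40 times the control. It was not flat at low doses, since both 0.3 nM libraries were above both control libraries, at 1.40 times the control mean. Its 10 nM over 0.3 nM log2 fold change was -0.37 (SE 0.33, adjusted p = 0.516). Among the rest of this group, Camkv, a catalytically inactive relative of the CaM kinases, had a change of 0.77 (SE 0.26, adjusted p = 0.0502). Srcin1, Gucy1a2 and Rab3d had log2 fold changes from -0.25 to 0.46, none with an adjusted p under 0.05.

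**Figure D4:**
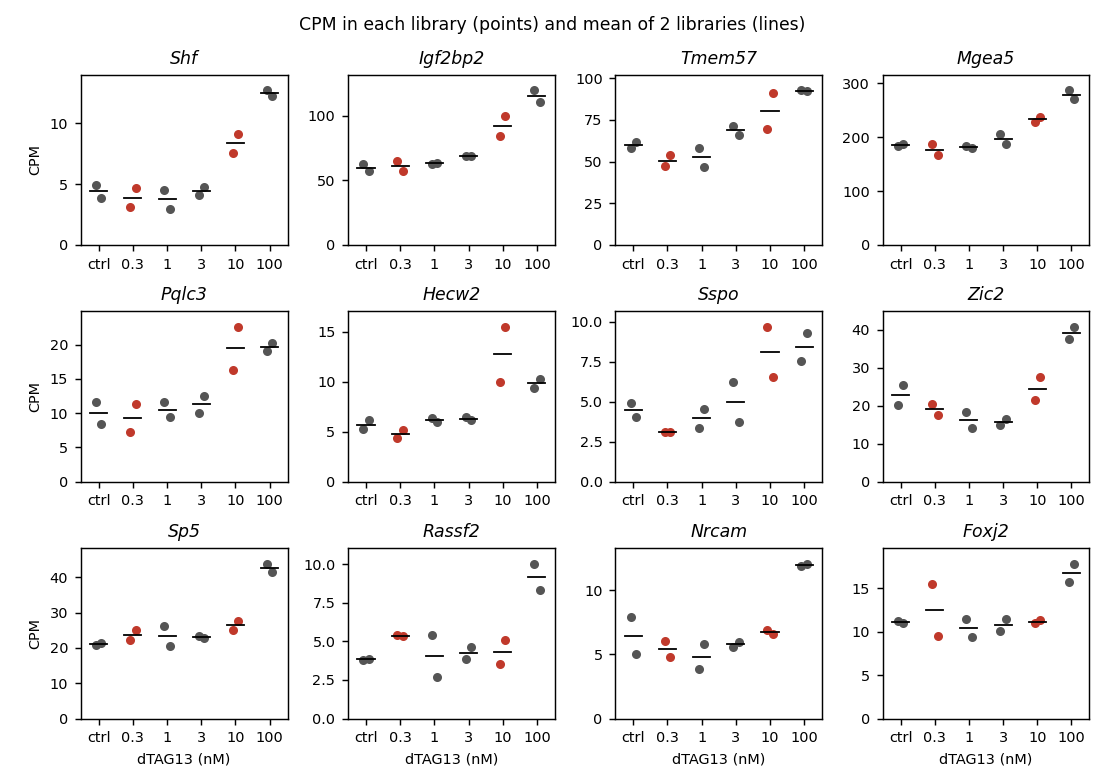
CPM in each library (points; red for the 0.3 and 10 nM libraries that were tested) and the mean of the 2 libraries (lines) are plotted for 12 members on linear axes from 0, with the dTAG13 dose on the horizontal axis. Shf, Igf2bp2, Tmem57, Mgea5, Pqlc3, Hecw2 and Sspo are higher at 10 nM than at 0.3 nM, and Zic2, Sp5, Rassf2 and Nrcam stand out at 100 nM. Foxj2 has a 0.3 nM library close to the lower of its 100 nM libraries.

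Of the 9 transcription factors and other DNA-binding regulators, 0 had an adjusted p under 0.05 by edgeR or DESeq2, against 5.8% of all genes by edgeR. By each tool 1 was higher at an unadjusted p under 0.05, against 11.7% of all genes by edgeR. Counts this small among 9 genes cannot show whether the group differs from the background. Their log2 fold changes ran from -0.21 to 0.50, and the median share of the 100 nM difference present at 10 nM was 33.2%, against 51.2% in the signaling group. Members are not replicates, so these medians are a description.

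Sp5, a zinc finger factor and well-known direct target of WNT signaling, had 20.9 and 21.3 CPM in the control libraries, 22.3 and 25.002 at 0.3 nM, 26.1 and 20.5 at 1 nM, 23.4 and 22.7 at 3 nM, 25.2 and 27.7 at 10 nM, then 43.9 and 41.5 at 100 nM. The 10 libraries up to 10 nM lay between 20.5 and 27.7 CPM, and both 100 nM libraries were well above them. The log2 fold change from 0.3 to 10 nM was 0.11 (SE 0.13, adjusted p = 0.668). En2, a homeobox factor of the midbrain and hindbrain, had 6.26 and 5.82 CPM in the control libraries, 8.35 and 9.14 at 0.3 nM, 7.41 and 6.43 at 1 nM, 5.79 and 5.30 at 3 nM, 9.52 and 7.29 at 10 nM, then 11.6 and 12.7 at 100 nM. En2 was not flat at low doses, since both 0.3 nM libraries were above both control libraries, and its log2 fold change was -0.10 (SE 0.23, adjusted p = 0.851).

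Zic2, a zinc finger factor of neural development that is also present in pluripotent cells, had 20.1 and 25.4 CPM in the control libraries, 20.5 and 17.6 at 0.3 nM, 18.4 and 14.1 at 1 nM, 15.01 and 16.4 at 3 nM, 21.5 and 27.5 at 10 nM, then 37.7 and 40.8 at 100 nM. It was 0.714 times the control at 1 nM and 0.691 at 3 nM, the lowest of the members at 3 nM, and 1.73 at 100 nM. 1 of its 10 nM libraries was within the range of the control and the other just above it. Its log2 fold change was 0.30 (SE 0.16, adjusted p = 0.229). Bbx, an HMG-box protein, had 53.4 and 55.8 CPM in the control libraries, 52.7 and 53.6 at 0.3 nM, 58.8 and 47.7 at 1 nM, 57.7 and 49.9 at 3 nM, 59.7 and 72.0 at 10 nM, then 85.2 and 81.3 at 100 nM, with a change of 0.25 (SE 0.10, adjusted p = 0.089). Foxj2, a forkhead factor, had 11.2 and 10.99 CPM in the control and 15.5 and 9.48 at 0.3 nM. At 10 nM it had 10.98 and 11.3 CPM, and at 100 nM 15.7 and 17.8. The higher 0.3 nM library of Foxj2 was thus close to the lower 100 nM library. Under each of the 3 other scalings Foxj2 did not meet the rule. Sall3, a spalt-type zinc finger factor, had 12.5 and 16.8 CPM in the control, 18.4 and 19.7 at 10 nM and 29.3 and 26.5 at 100 nM. Nfix, of the nuclear factor I family, had 4.94 and 4.85 CPM in the control, 5.65 and 9.48 at 10 nM and 7.87 and 7.35 at 100 nM, so that 1 library at 10 nM was near the control and the other above both 100 nM libraries.

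Of the 6 genes of the cell surface, adhesion and the matrix, 2 were called, against 2.32% of all genes tested and 14.9% of the 47 members. Of these 2, Sspo met the floor on mean CPM only through the higher doses, 10 nM among them. Sspo, which encodes SCO-spondin, a large secreted glycoprotein made in the brain, had 4.94 and 4.04 CPM in the control libraries, 3.13 and 3.10 at 0.3 nM, 3.37 and 4.55 at 1 nM, 6.22 and 3.76 at 3 nM, 9.69 and 6.56 at 10 nM, then 7.53 and 9.31 at 100 nM. Both 0.3 nM libraries were the lowest of the 12, and the 10 and 100 nM libraries overlapped. The log2 fold change was 1.34 (SE 0.33, adjusted p = 0.00639). Sspo had 18 counts in each 0.3 nM library and a mean RPKM (CPM per kilobase of exon) of 0.354, the lowest of the members, and it was called in 9 of 12 alternatives, losing the call without either 0.3 nM library or 10 nM replicate 1 (adjusted p from 0.0537 to 0.136). Its nearest neighbor of at least 5 CPM, Zfp467, lies 2404 bp away and was 1.69 times the control at 100 nM.

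Cd55, decay-accelerating factor, which protects cells from complement, had 8.90 and 9.05 CPM in the control libraries, 7.999 and 7.59 at 0.3 nM, 8.92 and 7.22 at 1 nM, 8.79 and 10.6 at 3 nM, 15.01 and 12.4 at 10 nM, then 15.9 and 17.2 at 100 nM. The 10 nM libraries lay above all libraries of lower doses, and the change was 0.77 (SE 0.21, adjusted p = 0.0156). Without either 0.3 nM library or 10 nM replicate 1 the adjusted p of Cd55 was 0.0781 to 0.183, and by DESeq2 it was 0.0736. Ltbp1, which stores latent TGF-beta in the matrix, had 4.61 and 4.04 CPM in the control libraries, 3.48 and 3.45 at 0.3 nM, 4.55 and 3.76 at 1 nM, 4.50 and 4.27 at 3 nM, 4.84 and 7.48 at 10 nM, then 9.71 and 7.84 at 100 nM. The change of Ltbp1 was 0.76 (SE 0.31, adjusted p = 0.113), and 1 of its 10 nM libraries was close to the higher control library. Nrcam, a neuronal cell adhesion molecule, had 7.91 and 5.01 CPM in the control, 6.94 and 6.56 at 10 nM and 11.9 and 12.1 at 100 nM, with a change of 0.26 (SE 0.29, adjusted p = 0.637). Has3, a hyaluronan synthase, and Evpl, envoplakin of cell junctions, had log2 fold changes of 0.28 and 0.26 with adjusted p of 0.54 and 0.506.

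Of the 5 genes of metabolism and transport and the 6 of RNA and DNA processing, 2 in each group had an adjusted p under 0.05 by edgeR. The share of all genes that were higher at this threshold was 5.8%, and that of the 47 members was 27.7%. Mgea5, the enzyme that removes O-GlcNAc from proteins, had 184 and 187 CPM in the control libraries, 188 and 167 at 0.3 nM, 184 and 180.1 at 1 nM, 206 and 188 at 3 nM, 229 and 238 at 10 nM, then 288 and 271 at 100 nM. Its libraries were close together at each dose, and it was higher at 10 nM with a change of 0.34 (SE 0.07, adjusted p = 0.000653), a fold below 1.5. At 100 nM it was 1.51 times the control. Igf2bp2, an mRNA-binding protein that stabilizes its targets, had 62.8 and 57.1 CPM in the control libraries, 64.9 and 57.2 at 0.3 nM, 62.8 and 63.8 at 1 nM, 68.8 and 68.9 at 3 nM, 84.4 and 99.9 at 10 nM, then 120.0 and 110.4 at 100 nM. Both 10 nM libraries lay above all 8 of the lower doses and below both at 100 nM. The change of Igf2bp2 was 0.54 (SE 0.09, adjusted p = 0.000245), with an adjusted p of at most 0.0152 in all 13 alternatives, and a fold under 1.5 in the fit reported here.

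Sat1, which acetylates spermidine and spermine and so starts their breakdown, had 24.7 and 26.8 CPM in the control libraries, 24.9 and 26.7 at 0.3 nM, 28.3 and 24.2 at 1 nM, 29.2 and 27.0 at 3 nM, 33.3 and 42.7 at 10 nM, then 47.7 and 48.0 at 100 nM. Both 10 nM libraries were above both 0.3 nM libraries, and the change was 0.50 (SE 0.12, adjusted p = 0.00619). Dhx32, a DEAH-box helicase family member, had 38.4 and 38.8 CPM in the control libraries, 36.2 and 32.6 at 0.3 nM, 40.4 and 37.8 at 1 nM, 42.0 and 38.8 at 3 nM, 51.5 and 54.3 at 10 nM, then 59.4 and 58.3 at 100 nM. Its change was 0.57 (SE 0.10, adjusted p = 0.000278), and 6.34% of its exon bases overlap Bccip, whose reads could be counted with it in an unstranded count. Sat1 and Dhx32 are both among the 6 members that met the rule with any library left out. Slc27a2, a fatty acid transporter and acyl-CoA synthetase, had 4.94 and 5.34 CPM in the control libraries, 5.04 and 4.66 at 0.3 nM, 4.88 and 3.92 at 1 nM, 4.72 and 7.01 at 3 nM, 6.46 and 7.48 at 10 nM, then 12.2 and 7.68 at 100 nM. Its 100 nM libraries lay far apart, and its change was 0.47 (SE 0.30, adjusted p = 0.357). An opposite-strand transcript, Gm26697, covers 18.2% of its exon bases. Elovl2, a fatty acid elongase, and Slc35a5, of the nucleotide sugar transporter family, had adjusted p of 0.377 and 0.909. Tcea2, a transcription elongation factor, Dtwd1, Faap24 of the Fanconi anemia pathway and Mb21d1, the cytosolic DNA sensor cGAS, had log2 fold changes from -0.15 to 0.24, none with an adjusted p under 0.05.

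Of the 8 members without an assigned role, 3 were called, against 2.32% of all genes tested and 14.9% of the 47 members. Pqlc3, a PQ-loop membrane protein, had 11.7 and 8.41 CPM in the control libraries, 7.30 and 11.4 at 0.3 nM, 11.6 and 9.41 at 1 nM, 10.1 and 12.5 at 3 nM, 16.3 and 22.6 at 10 nM, then 19.08 and 20.3 at 100 nM. The 10 and 100 nM libraries overlapped and all 4 were above the other 8. Its change was 0.99 (SE 0.22, adjusted p = 0.00261), with an adjusted p of 0.0971 when 0.3 nM replicate 1 was left out and of 0.0537 when 10 nM replicate 2 was. Tmem57, the membrane protein macoilin, had 58.2 and 61.4 CPM in the control libraries, 47.1 and 54.1 at 0.3 nM, 58.3 and 46.9 at 1 nM, 71.4 and 66.0 at 3 nM, 69.7 and 91.0 at 10 nM, then 92.9 and 92.3 at 100 nM. It was under the control at 0.3 nM and over it at 3 nM, and its change of 0.61 (SE 0.10, adjusted p = 0.000175) had the lowest adjusted p of the members. Without 0.3 nM replicate 1 or 10 nM replicate 2 the adjusted p stayed under 0.05, at 0.0128 and 0.00873, and the fold fell below 1.5. Ccdc171, a coiled-coil protein, had 10.5 and 9.54 CPM in the control libraries, 7.13 and 8.10 at 0.3 nM, 10.9 and 6.43 at 1 nM, 8.58 and 10.4 at 3 nM, 12.3 and 14.8 at 10 nM, then 16.7 and 13.6 at 100 nM. Both 0.3 nM libraries were under both control libraries, and the change was 0.77 (SE 0.23, adjusted p = 0.0279), with adjusted p from 0.0116 to 0.184 over 13 alternatives and over 0.05 with any of the 4 libraries left out and by DESeq2 (0.0937). Efcab2, with an EF-hand domain, was 2.38 times the control at 100 nM, from 4.28 and 3.23 CPM in the control, 3.13 and 4.83 at 0.3 nM, 6.30 and 6.56 at 10 nM, then 9.54 and 8.33 at 100 nM. Its change was 0.64 (SE 0.32, adjusted p = 0.214).

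None of the 4 genes of the cytoskeleton and cilia had an adjusted p under 0.05 by edgeR or DESeq2, with 1 higher at an unadjusted p under 0.05 by each tool, beside the same background of 5.8% and 11.7% of all genes by edgeR. Dnah10, a ciliary dynein heavy chain, had 4.94 and 5.50 CPM in the control libraries, 5.74 and 7.76 at 0.3 nM, 3.70 and 5.18 at 1 nM, 5.36 and 5.64 at 3 nM, 5.49 and 6.20 at 10 nM, then 9.37 and 8.49 at 100 nM. Both 100 nM libraries were the highest of the 12, and Dnah10 met the rule with any library left out. Its change was -0.26 (SE 0.28, adjusted p = 0.607). Fhod3, a formin that builds actin filaments, had 21.3 and 14.1 CPM in the control, 15.3 and 14.5 at 0.3 nM, 20.3 and 23.9 at 10 nM, then 31.1 and 30.5 at 100 nM, with a change of 0.51 (SE 0.19, adjusted p = 0.0674). Efhd2, a calcium-binding protein of the actin cytoskeleton, and Clip4 had adjusted p of 0.243 and 0.53.

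Of 25 lists of pathways and cell types, 3 held a member and 22 held none. The lists hold 6.38% of the members against 4.29% of the 9815 genes, shares that lie close together. The neural list held Zic2. Of its 17 tested genes, 5 were called higher at 10 nM than at 0.3 nM, against 2.32% of all genes tested, which in log2 fold change were the intermediate filament gene Nes at 1.22 (SE 0.17, adjusted p = 9.3e-06), the tubulin gene Tubb3 at 0.71 (SE 0.09, adjusted p = 3.1e-06), the adhesion gene Ncam1 at 1.04 (SE 0.15, adjusted p = 1.95e-05), and the secretory granule genes Chga at 1.21 (SE 0.15, adjusted p = 1.5e-06) and Pcsk1n at 1.80 (SE 0.35, adjusted p = 0.000666). None of this list was called lower.

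The WNT list held Sp5. Of its 18 tested genes, 2 were called higher and 3 lower, against 2.32% and 3.44% of all genes tested. The higher ones were the WNT effector Lef1, at 0.73 (SE 0.19, adjusted p = 0.0114), and the ligand Wnt8a, at 1.68 (SE 0.53, adjusted p = 0.035). The inhibitor Sfrp1 was lower, at -1.66 (SE 0.08, adjusted p = 6.04e-14), as were the receptors Fzd5, at -0.81 (SE 0.07, adjusted p = 7.41e-09), and Fzd7, at -0.59 (SE 0.13, adjusted p = 0.00261). The list of TGF-beta and BMP genes held Ltbp1. Of its 23 tested genes, 1 was called higher and 2 lower, beside the same shares of all genes. The ligand Nodal was the higher, at 0.63 (SE 0.11, adjusted p = 0.000329), and the ligands Inhbb, at -1.79 (SE 0.26, adjusted p = 1.67e-05), and Bmp4, at -0.86 (SE 0.19, adjusted p = 0.0022), were the lower ones. The calls in both lists went in both directions.

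The gene curves most like that of Arl4a, the member with the largest 100 nM ratio among those of at least 10 CPM, were those of Slc25a5, Sars and Wdr82. Their Pearson correlations with it over the 6 condition means of log2 CPM were 0.995, 0.994 and 0.994, over points that share libraries and with no test. None of the 3 is a member, since their means at 100 nM were less than 1.5 times the control.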

How the data were processed

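The authors deposited raw counts of read pairs per gene symbol for 12 libraries of the SMART-Seq Stranded kit. Per the labels and the study's methods, reads were trimmed with Trim Galore, aligned to mm10 with HISAT2 and counted on exons with featureCounts 2.0.1 without strand, and no normalization or filter was applied to the counts. CPM and RPKM were computed from these counts and the deposited exon lengths, and coordinates are those of the count table. The 10 nM and 0.3 nM libraries were compared with edgeR 4.0.16 in R 4.3.3 by the quasi-likelihood test with TMM factors, in 1 fit of all 6 conditions, over 11468 genes with a mean RPKM of at least 1 or a mean CPM of at least 5, with Benjamini-Hochberg adjustment. DESeq2 1.42.0, edgeR's likelihood ratio test, other scalings and filters and left-out libraries were alternatives. On simulated counts of this comparison over 11468 genes, 84.5% of 200 genes changed 2-fold were called, with 2 false calls. The simulation gave every gene the same spread and drew the changed genes from all genes tested. It therefore does not give the recovery for members, whose counts are lower. Intervals of ratios are 95% and treat counts as binomial, without molecular identifiers. TMM factors ran from 0.954 to 1.06.

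The members and the gene lists were chosen with earlier results of these data known. Members named with values are the 10 with the largest 100 nM ratio, those called at 10 nM over 0.3 nM, the 5 of highest CPM and those in a list, and the other members given values were chosen after their values were seen. The replicate numbers of the labels were not taken to pair samples. Differences between the replicates of 2 conditions correlated by -0.187 to 0.177 over 15 pairs of conditions, which cannot exclude a pairing.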

Additional observations from a re-analysis of the deposited data

How the results depend on the processing

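The number of genes that met the rule was 124 with a ceiling of 25% above the control, 21 with 5%, 7 with a floor of 2 times, 21 at a mean of at least 10 CPM and 263 at 1 CPM. It was 52 with TMM-scaled totals, 53 with DESeq2 size factors and 58 without Rn45s and Rpph1. Leaving out a library gave 44 to 79 genes, with 79 without 3 nM replicate 1 and 72 without 100 nM replicate 2. For 10 nM over 0.3 nM, DESeq2 called 4 members and 171 genes and lost Shf, Cd55 and Ccdc171, and an adjusted p without a fold minimum 13 and 665. Leaving out a library gave 3 to 6 members, 153 to 239 genes and a median log2 fold change of 0.31 to 0.37. Of the members called, 1 of the 3 without 0.3 nM replicate 1 (153 genes), 4 of the 4 without 0.3 nM replicate 2, 4 of the 6 without 10 nM replicate 1 and 3 of the 4 without 10 nM replicate 2 were among the 7. The count of members stayed at 5 to 9 under the other tests, scalings and filters. En2 turned to 0.13 without 10 nM replicate 2, within -0.37 to 0.13 over left-out libraries. Of 244 values of 19 named members over 13 settings, 213 kept their direction and side of the threshold, 30 lost the threshold and 1 reversed. Causes were not tested.

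With the replicate number as a block, 7 members and 252 genes were called and the median was 0.30. The numbers were not taken to pair the samples. Replicate differences correlated by over 0.1 in 2 of 15 pairs of conditions and by 0.022 between 0.3 and 10 nM. These values cannot exclude a pairing. Low counts limit single members, of which 26 had a mean under 10 CPM.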
